A study of Mus musculus with 2 samples.

Results

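The genes of heme breakdown, iron handling and the NRF2 antioxidant response, *Hmox1*, *Slc40a1*, *Fth1*, *Ftl1*, *Gclm*, *Gclc*, *Nqo1*, *Srxn1*, *Txnrd1* and *Slc7a11*, were taken from a list, 10 of the 32285 genes counted, with no measured value in the rule, though the list was drawn up with earlier results of these data known. They were followed in single alveolar macrophages (AMs), the resident macrophages of the air spaces. AMs (in the study a CD45+ autofluorescent population, Siglec-F+ and F4/80+, described as CD11c+ and CD11b-) were sorted from the lungs of C57BL/6 mice aged 10 weeks by the labels, and 1 droplet library (10x Genomics 3′ chemistry) was made per condition. Control-AM came from vehicle-injected mice, and Tumor-AM from mice whose left lung had received Lewis lung carcinoma cells carrying tdTomato. The sources used here do not say how many mice were pooled in a library. Every value below is from a single library, so cells are not replicates and nothing was tested. Tumor and library batch cannot be told apart.

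Heme oxygenase 1, encoded by *Hmox1*, opens the heme ring and releases iron. Ferroportin, encoded by *Slc40a1*, is the cell's iron exporter, and the ferritin chains FTH1 and FTL1 store the iron that stays. NRF2 is a transcription factor that enters the nucleus under electrophilic or oxidative stress and acts at antioxidant response elements, where the heme-sensing repressor BACH1 competes with it. Its classic targets make glutathione (*Gclc*, *Gclm*), import cystine for it (*Slc7a11*), keep thioredoxin and peroxiredoxins reduced (*Txnrd1*, *Srxn1*) and reduce quinones (*Nqo1*). *Hmox1*, the ferritin genes and *Slc40a1* are also among the genes of this response in macrophages.

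Barcodes with at least 500 detected genes and at most 10% mitochondrial unique molecular identifiers (UMIs) were kept, 6185 of 8485 in the control and 7666 of 9175 in the tumor library, with medians of 10370 and 8264 UMIs. The libraries shared 17 kept barcodes. All 10 AM markers checked were present, at a summed 16235 and 13803 UMIs per 1000000 (CPM). Markers of other cell types were present and differed between the libraries. The interstitial macrophage list (*C1qa*, *C1qb*, *C1qc*, *Stab1*) stood at 0.925 CPM in control and 39.2 in tumor, and the monocyte and tumor-associated macrophage list at 8.05 and 17.9. Fibroblast markers were at 0.709 and 31.7 CPM, neutrophil markers at 70.3 and 123, and epithelial markers at 84.5 and 22.0. Their part in the differences between libraries was not tested beyond leaving out the barcodes that such markers lead. That was done for the 10 listed genes only. At least 3 UMIs of other types, outnumbering those of AM markers, were found in 23 control and 47 tumor barcodes.

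A level is the CPM of the pooled cells of a library or class, and fold changes are between such pools, with exact 95% intervals in parentheses that cover counting error only. A level in a library mixes how many cells carry the transcript and how much each holds. For shares of cells and for co-expression, each cell was thinned to 3800 UMIs, which left 5590 control and 6937 tumor cells. Since 3′ UMIs of different genes are not a common scale, levels are compared between libraries and cells and not between genes.

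Sequences of 2 kinds bear on these genes. The first is the iron-responsive element, a hairpin in the untranslated leader at which iron regulatory proteins hold back translation when iron is low. Proteins of such mRNAs can therefore change with no change in the mRNA, which is what was counted. The search pattern was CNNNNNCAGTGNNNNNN, read on the mRNA strand only, with the 5 bases before the loop pairing with the 5 after it. It matched in the leaders of 31 of 20898 genes (0.148%) and of 3 of the 10 listed genes, shown here with the 6 bases of the loop in capitals (GENCODE vM21 transcripts, GRCm38).
Slc40a1, chr1:45925466-45925492, reverse strand: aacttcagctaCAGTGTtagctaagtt
Fth1, chr19:9982733-9982759, forward strand: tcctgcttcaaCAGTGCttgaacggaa
Ftl1, chr7:45459780-45459806, reverse strand: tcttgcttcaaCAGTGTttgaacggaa
The elements of both ferritin genes have the same 5 paired bases on each side of the loop, and that of *Slc40a1* has others.

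The second kind is the promoter. The letters TGACNNNGC, the core of the antioxidant response element, were searched on both strands of the 250 bases before each RefSeq start (GRCm38.p6). Of 32851 windows 10.2% held a match. There were 10 windows of 7 listed genes (*Fth1*, *Ftl1*, *Gclm*, *Nqo1*, *Srxn1*, *Txnrd1* and *Slc7a11*, not *Hmox1*, *Slc40a1* or *Gclc*), of which 2 held a match, in *Gclm* and in *Txnrd1*. Both matches lie on the opposite strand, and the capitals mark them as read on the printed strand, GCACCGTCA at 134 to 126 bases before the *Gclm* start and GCTTTGTCA at 92 to 84 bases before that of *Txnrd1*. For *Srxn1*, the only one of these 7 genes with them, the capitals mark 2 matches to the AP-1 letters TGANTCA, found in 6.75% of all windows. The AP-1 letters overlap no exact match to TGACNNNGC in the windows shown. The *Srxn1* match at 45 bases before the start continues with gc. It reads TGAGTCAGC, with G where TGACNNNGC has its first C. Only exact letters were searched, so near matches such as this were not counted, and an element of related form is not excluded.
Gclm, chr3:122245307-122245556, forward strand: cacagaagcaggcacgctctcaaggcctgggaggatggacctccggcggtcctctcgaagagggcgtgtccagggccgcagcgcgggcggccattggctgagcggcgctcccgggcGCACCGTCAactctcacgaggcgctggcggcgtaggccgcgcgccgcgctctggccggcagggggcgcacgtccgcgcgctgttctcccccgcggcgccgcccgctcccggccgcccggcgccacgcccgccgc
Txnrd1, chr10:82858956-82859205, forward strand: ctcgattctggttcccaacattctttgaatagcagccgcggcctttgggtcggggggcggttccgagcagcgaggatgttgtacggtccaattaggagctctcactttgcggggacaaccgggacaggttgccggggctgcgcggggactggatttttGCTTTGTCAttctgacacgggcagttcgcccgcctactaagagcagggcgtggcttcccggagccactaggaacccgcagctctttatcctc
Srxn1, chr2:152105274-152105523, forward strand: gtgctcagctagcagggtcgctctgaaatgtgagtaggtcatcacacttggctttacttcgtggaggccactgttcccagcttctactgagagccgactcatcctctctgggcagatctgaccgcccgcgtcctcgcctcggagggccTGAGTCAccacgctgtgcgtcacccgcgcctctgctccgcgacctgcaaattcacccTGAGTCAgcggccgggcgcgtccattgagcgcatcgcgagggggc
Such matches are descriptions of letters and do not show that a factor binds there.

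The first comparison asked how these genes stood in AMs of tumor-bearing lungs. The transcripts of the heme-degrading enzyme and of the iron exporter were lower in the tumor library, and those of the other 8 genes, ferritin included, differed by less than 1.5-fold. *Hmox1* and *Slc40a1* were the 2 of 10 listed genes at least 1.5-fold lower, against 9.12% of the 11361 genes with at least 100 UMIs. None of the 10 was at least 1.5-fold higher, against 7.47% of all genes. On the log2 scale the median change was −0.040 over the 10 genes and −0.056 over all genes.

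*Hmox1* (chr8:75093621-75100589) measured 1333 CPM (1324 to 1342) in control and 723 CPM (717 to 729) in tumor AMs, so it was 1.84-fold lower in tumor (log2 fold change −0.88, −0.90 to −0.87). After thinning, the median cell held 4 *Hmox1* UMIs in control and 1 in tumor. The share of cells with a *Hmox1* UMI was 87.8% in control (86.9% to 88.6%) and 68.4% in tumor (67.3% to 69.5%), and before thinning 94.7% and 83.0%. Among the thinned barcodes of other cell types, 3 of 12 in control and 16 of 40 in tumor held a *Hmox1* UMI. Over all 23 and 47 such barcodes *Hmox1* was at 115 and 483 CPM. They can include other macrophages with *Hmox1* of their own, so they are not a clean measure of background. The median depths of those barcodes before thinning were 3901 and 13014 UMIs. Cells with 4 to 7 or 8 to 15 *Hmox1* UMIs numbered 1790 (32.0%) and 1120 among control cells, and 1004 (14.5%) and 405 (5.84%) among tumor cells. Cells with at least 16 UMIs numbered 182 (3.26%) in control and 168 (2.42%) in tumor, and the highest cells held 69 and 76 UMIs. Without these highest cells the log2 fold change between libraries was −1.07.

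**Figure D1:**
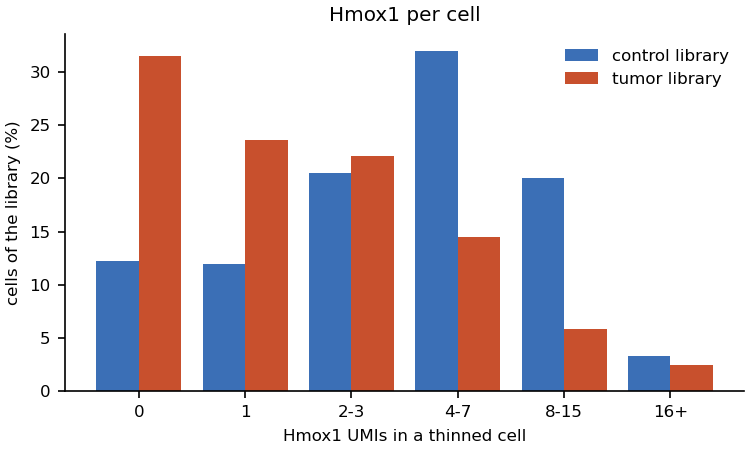
Share of the thinned cells of each library (vertical axis, %) by the number of Hmox1 UMIs in the cell at 3800 UMIs (horizontal axis), control in blue and tumor in orange. Tumor cells crowd at 0 and 1 UMIs (31.6% and 23.6%), control cells at 4 to 7 UMIs (32.0%), and 3.26% of control and 2.42% of tumor cells have at least 16 UMIs.

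*Slc40a1* (chr1:45908068-45926523) stood at 32.4 CPM (31.0 to 33.8) in control and 15.99 CPM (15.1 to 16.96) in tumor, a log2 fold change of −1.02 (−1.13 to −0.91), or 2.03-fold lower. A UMI of it was seen in 9.28% of cells after thinning in control (8.54% to 10.1%) and 5.45% in tumor (4.93% to 6.01%), and 18.7% and 10.0% before it. None of the 12 and none of the 40 barcodes of other cell types held a thinned *Slc40a1* UMI.

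Ferritin transcripts were higher in tumor, by less than 1.5-fold. *Fth1*, the heavy chain with ferroxidase activity (chr19:9980598-9985098), stood at 20682 CPM in control and 24947 CPM in tumor, a log2 fold change of 0.27 (0.27 to 0.27). *Ftl1*, the light chain (chr7:45457944-45459884), stood at 15345 CPM and 18385 CPM, a ratio of 0.26 (0.26 to 0.26). Every thinned cell of both libraries held UMIs of both genes. The spread of *Fth1* among cells was wider in the tumor library, with a 10th percentile of 32 and a 90th of 157 thinned UMIs, against 34 and 124 in control. Both genes have near-identical copies elsewhere in the genome. One of these, *Ftl1-ps1*, took 4658 control and 6288 tumor UMIs, and how reads were divided among the copies is uncertain.

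None of the 3 listed genes of glutathione supply differed by 1.5-fold. *Gclm*, the modifier subunit (chr3:122245557-122270732), stood at 168 and 138 CPM, a log2 fold change of −0.28 (−0.32 to −0.24). *Gclc*, the catalytic subunit (chr9:77754535-77794485), stood at 89.7 and 76.1 CPM, a ratio of −0.24 (−0.29 to −0.18). *Slc7a11*, the cystine importer (chr3:49892526-50443614), was at 204 and 216 CPM, a ratio of 0.079 (0.046 to 0.11).

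Thioredoxin and quinone enzymes were close between libraries. *Txnrd1*, thioredoxin reductase (chr10:82833951-82897712), stood at 295 and 300.2 CPM, with a log2 fold change of 0.024 (−0.0047 to 0.052). *Srxn1*, sulfiredoxin (chr2:152105516-152111376), stood at 58.3 and 66.3 CPM, with a ratio of 0.18 (0.12 to 0.25). *Nqo1*, NAD(P)H quinone dehydrogenase (chr8:107388225-107403206), was near the detection limit at 3.82 and 3.56 CPM, from 248 and 245 UMIs, and its interval spans no difference (−0.36 to 0.16).

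**Figure D2:**
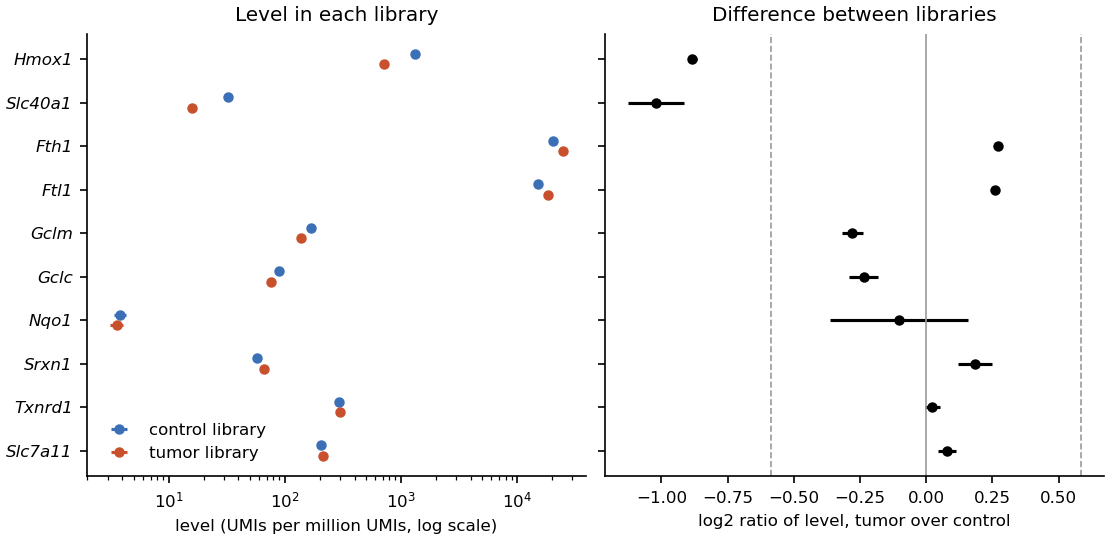
Left, level of each gene in CPM on a log axis in the control (blue) and tumor (orange) library; right, log2 fold change of tumor over control. Bars are exact 95% intervals of counting error and the dashed lines mark 1.5-fold. *Hmox1* (−0.88) and *Slc40a1* (−1.02) lie beyond the dashed line, and the other 8 genes lie between −0.28 and 0.27.

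Beyond the 10 genes, 4 of 19 heme and iron genes with enough UMIs were at least 1.5-fold higher in tumor and 0 lower, where 7.47% of all genes were higher and 9.12% lower. These were *Hp*, the hemoglobin scavenger haptoglobin, at 1.51 and 8.76 CPM (log2 fold change 2.54), *Slc11a1*, the phagosomal metal transporter NRAMP1, at 6.82 and 19.0 CPM (1.48), *Flvcr1*, a heme exporter, at 11.1 and 17.4 CPM (0.65), and *Slc11a2*, the divalent metal importer DMT1, at 8.68 and 13.6 CPM (0.65). The last was named after its value was seen. Ratios of genes beyond the 10, here and in the lists that follow, were not recomputed without the barcodes of other cell types. Markers of those types differed between the libraries, and their part in these ratios was not tested. Of 25 further NRF2 and antioxidant genes, 0 were higher and 1 was lower, *Osgin1*, an oxidative stress-induced gene, at 4.35 and 2.89 CPM (−0.59). *Ugdh*, UDP-glucose dehydrogenase, had a log2 fold change of 0.57 and *Gstm1*, a glutathione transferase, of 0.43.

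None of 8 NRF2 and BACH1 regulators passed 1.5-fold, and the largest ratios were 0.28 for *Nfe2l1*, 0.22 for *Maff* and 0.14 for *Keap1*, the adaptor that marks NRF2 for degradation. Of 7 genes of the ATF4 stress response, which also drives *Slc7a11*, none passed either, with ratios of −0.54 for *Asns*, 0.38 for *Ddit3* and 0.36 for *Trib3*. *Spic* and *Cd5l*, markers of the iron-recycling macrophages of spleen and liver, had too few UMIs to compare. Of the other 3 genes of that list, 1 was at least 1.5-fold higher and 0 lower, against 7.47% and 9.12% of all genes. It was *Vcam1*, an adhesion molecule, at 0.370 and 3.24 CPM (3.13), from 24 and 223 UMIs. *Axl* and *Mertk* did not pass, and the median log2 fold change of the 3 was 0.21.

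The second question was which genes went together within single cells. *Hmox1*-high cells were those at or above the 75th percentile of thinned *Hmox1* UMIs of their library, at least 7 UMIs in control (1650 cells against 3940) and at least 3 in tumor (2124 against 4813). These classes are ranges, with 348 and 547 cells exactly at the limit. In control, 7 of the other 9 listed genes were at least 1.5-fold higher in *Hmox1*-high cells, where 0.559% of 8950 genes were. In tumor it was 5 of 9, against 0.888% of 9233 genes. The median log2 fold changes of the 9 genes were 0.80 and 0.67, and those of all genes 0.01 and 0.03.

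*Slc40a1* led in both libraries, at 55.5 CPM in control *Hmox1*-high cells and 21.6 CPM in the others (log2 fold change 1.36, 1.14 to 1.59), and at 35.7 against 9.40 CPM in tumor (1.92, 1.65 to 2.205). *Slc7a11* followed in control with 317 against 151 CPM (1.07), and had 295 against 183 CPM in tumor (0.69). *Srxn1* was higher by 0.93 and 0.86 on the log2 scale, and *Gclm* by 0.93 and 0.67. *Gclc* and *Txnrd1* passed 1.5-fold in control (0.73 and 0.64) and came just short of it in tumor (0.54 and 0.50), and the difference between libraries was not tested. *Nqo1* also passed in both (0.80 and 0.69), from 35 UMIs in the high cells of each library, and with another random thinning its control ratio was 0.15. The thinned cells of either library held fewer *Nqo1* UMIs than the 100 required of a background gene. It is still counted among the listed genes, here and for *Slc40a1*-high cells. The ferritin genes did not go along, with ratios for *Ftl1* of 0.18 and 0.073 and for *Fth1* of 0.056 and −0.11. With cells thinned to 2500 UMIs, tumor *Slc40a1* had 0.97.

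Read in finer steps of *Hmox1* UMIs, *Slc40a1* and *Gclm* were at their highest in the last. In control, *Slc40a1* was at 15.8 CPM in cells with no *Hmox1* UMI, 14.6 CPM at 1 UMI, 27.1 CPM at 4 to 7 UMIs, 40.6 CPM at 8 to 15 UMIs and 205 CPM (173 to 242) in cells with at least 16. In tumor the same steps gave 7.09, 9.33, 25.7, 42.9 and 119 CPM (93.8 to 149). *Gclm* went from 96.5 CPM with no *Hmox1* UMI to 193 CPM at 8 to 15 and 758 CPM in the highest control cells, and in tumor from 108 to 207 and 465 CPM. *Gclc* in tumor was at 133 CPM at 8 to 15 UMIs and 146 CPM at 16 or more, and *Nqo1* showed no order below 16 UMIs, between 2.32 and 5.13 CPM in control. *Fth1* was nearly flat in control until the last step (18752 CPM with none, 18991 at 8 to 15, 28992 at 16 or more). In tumor it was lower with more *Hmox1*, from 23179 to 18818 CPM, and then 28122 CPM in the highest cells.

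**Figure D3:**
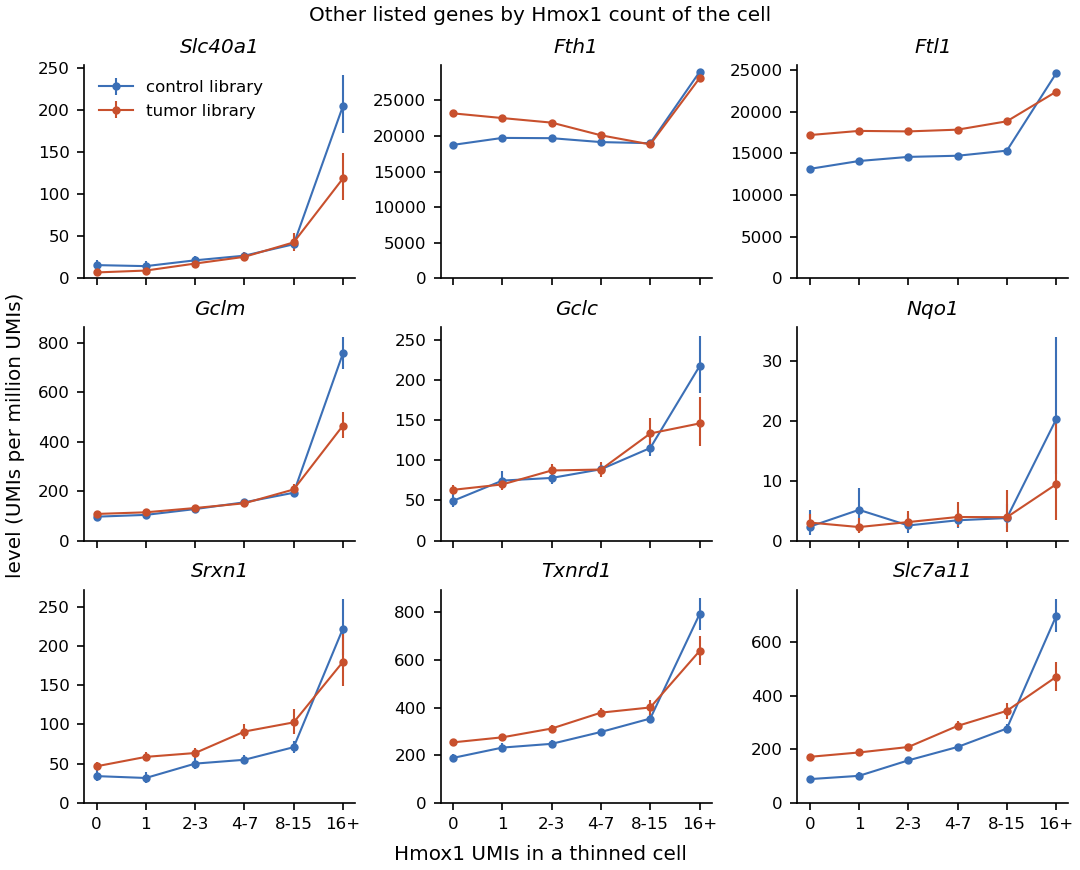
Level of the other 9 genes (vertical axes, CPM) in thinned cells grouped by their Hmox1 UMIs (horizontal axes), control in blue and tumor in orange; bars are exact 95% Poisson intervals. *Slc40a1* climbs from 15.8 to 205 CPM in control and from 7.09 to 119 CPM in tumor, with the steepest step at 16 UMIs, while *Fth1* in tumor is lower at 8 to 15 UMIs than at 0.

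The same bins allow the libraries to be set side by side at equal *Hmox1* counts, although a thinned count is a noisy measure and cells with the same count need not have the same level. *Gclm* did not differ beyond its interval in any of the 5 bins below 16 UMIs, with log2 fold changes of tumor over control from −0.037 to 0.16. *Slc40a1* was at −0.075 (−0.44 to 0.29) at 4 to 7 UMIs and 0.077 (−0.35 to 0.49) at 8 to 15, but lower in tumor in cells with none (−1.16, −1.76 to −0.55) or 1 (−0.65, −1.27 to −0.010). *Slc7a11*, nearly level over whole libraries, was higher in tumor in each of those 5 bins, at 171 against 88.0 CPM in cells with no *Hmox1* UMI (0.96, 0.76 to 1.17) and 287 against 208 CPM at 4 to 7 UMIs (0.46). *Txnrd1* and *Srxn1* were likewise higher in tumor in all 5, by 0.18 to 0.43 and by 0.35 to 0.89. In the bin of at least 16 UMIs, *Slc7a11* (−0.57, −0.78 to −0.36) and *Txnrd1* (−0.31, −0.50 to −0.13) had the opposite sign and were lower in tumor, and *Srxn1* was at −0.31 with an interval that spans no difference (−0.67 to 0.052). *Gclm* (−0.70), *Gclc* (−0.57) and *Slc40a1* (−0.79) were lower in tumor in that bin too.

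Cells with at least 16 *Hmox1* UMIs held 15.9% of the *Hmox1* UMIs of the thinned control cells and 24.7% of those in tumor. Ranked by their ratio to the remaining cells, *Slc40a1* came 1st of 8919 genes in control and 1st of 9145 in tumor, *Hmox1* left out, at 7.98-fold and 7.97-fold. A *Slc40a1* UMI was seen in 43.4% of these cells in control and 26.8% in tumor, against 8.14% and 4.92% of the rest. *Gclm* ranked 4th and 5th (5.29-fold and 3.67-fold). *Me1*, the NADPH-making malic enzyme, was 3rd and 2nd (5.90-fold and 4.40-fold), and *Akr1b8*, an aldo-keto reductase, 10th and 3rd. These 2 genes were named after their ranks were seen.

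Ferritin was also higher there, *Ftl1* 1.69-fold and 1.27-fold and *Fth1* 1.51-fold and 1.28-fold. Their median depth was 10697 UMIs against 10844 for the rest in control, and 9189 against 8759 in tumor. Their AM markers were at 14079 CPM against 16318 in the rest in control, and at 13609 against 14166 in tumor. All B cell, T and NK cell and fibroblast markers were at 0. In tumor, neutrophil markers were at 78.3 CPM against 115 in the rest, interstitial macrophage markers at 20.4 against 23.5 and monocyte and tumor-associated macrophage markers at 15.7 against 19.2. In control these lists were at 57.8 against 57.8, 1.45 against 1.51 and 2.89 against 8.76 CPM. Epithelial markers were at 52.1 against 88.2 CPM in control and 17.2 against 21.5 in tumor. Of the iron-recycling macrophage genes, *Vcam1* and *Cd5l* were at 0, and *Spic*, *Axl* and *Mertk* together had 475 UMIs in control and 535 in tumor (687 and 838 CPM, against 791 and 919 in the rest). Of these cells, 0 in control and 1 in tumor counted as another cell type. Without the cells of at least 16 UMIs, the log2 fold change in *Hmox1*-high cells was 0.78 in control and 1.601 in tumor for *Slc40a1*, 0.84 and 0.61 for *Slc7a11*, and 0.62 and 0.75 for *Srxn1*. *Gclc* stayed past 1.5-fold in control alone (0.59 and 0.48). *Gclm* (0.49 and 0.46) and *Nqo1* (0.23 and 0.54) no longer passed 1.5-fold in either library, nor did *Txnrd1* (0.44 and 0.42), so the genes past it went from 7 to 4 of 9 in control and from 5 to 3 in tumor.

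*Slc40a1*-high cells were those with any thinned *Slc40a1* UMI, 519 of 5590 in control and 378 of 6937 in tumor. In control, 7 of the other 9 genes were at least 1.5-fold higher in them, against 2.08% of genes. In tumor it was 4 of 9, against 4.35%, and 2 of 9 with another random thinning. *Hmox1* was at 2382 against 1265 CPM in control (log2 fold change 0.91) and at 1975 against 657 CPM in tumor (1.59). Without the cells of at least 16 *Hmox1* UMIs these were 0.35 and 0.90, and 4 of 9 genes passed in control. Those cells were left out by *Hmox1* itself, so a smaller *Hmox1* ratio follows in part from that choice. *Gclm* was at 344 against 145 CPM in control (2.37-fold) and 204 against 131 CPM in tumor (1.56-fold). *Slc7a11* was 1.21 higher on the log2 scale in control and 0.29 in tumor. *Nqo1* was at 15.7 against 2.70 CPM in control (2.54, 1.85 to 3.21), from 31 and 52 UMIs. In tumor *Nqo1*, also counted as past 1.5-fold, was at 6.27 against 3.01 CPM from 9 and 75 UMIs. Its ratio there was 1.06, with an interval that spans no difference (−0.13 to 2.06). *Fth1* was higher in control *Slc40a1*-high cells (0.24) and lower in tumor ones (−0.23).

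Pairwise correlations of log2(thinned UMIs + 1) across the 5590 control and 6937 tumor cells were weak for the sparse genes, all of which share depth and library. Between the abundant ferritin genes Pearson's r was 0.59 in control and 0.55 in tumor. *Hmox1* correlated with *Slc7a11* at 0.27 and 0.17, with *Gclm* at 0.25 and 0.18, with *Txnrd1* at 0.24 and 0.18, and with *Slc40a1* at 0.18 and 0.20. Its correlation with *Fth1* was 0.053 and −0.052. Among 6434 genes seen in at least 5% of thinned cells of each library, the 5 most like *Hmox1* by mean r were *Sqstm1*, the autophagy receptor p62 (0.26), *Prdx1*, a peroxiredoxin (0.23), and the listed *Slc7a11*, *Gclm* and *Txnrd1*. *Slc40a1* came 6th, *Srxn1* 8th, *Gclc* 13th, *Ftl1* 14th and *Fth1* 3812th. The 5 most like *Slc40a1* were *Prdx1* (0.19), *Hmox1* (0.19), *Creg1* (0.15), *Cat*, the catalase gene (0.14), and *Gclm* (0.14). Values this low in sparse counts are an order of likeness and no more.

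The third comparison set MHC class II-high cells against the others. Class II molecules present antigen to CD4+ T cells, and most AMs hold little of them. Cells at or above the 90th percentile of the share of UMIs from *H2-Aa*, *H2-Ab1*, *H2-Eb1* and *Cd74*, both libraries weighted equally, were called high (at least 0.168% of UMIs). This gave 767 control cells (12.4%) and 583 tumor cells (7.61%), with 114 and 107 cells within 10% of the limit. *Ciita*, the class II master regulator and not part of the score, was 13.8-fold and 7.64-fold higher in them.

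In the control library, the ratios of the 10 listed genes were below 0 in class II-high cells, with intervals that reach past 0 for *Slc40a1* and *Nqo1*. Of 10 genes, 0 were at least 1.5-fold higher (1.48% of 10503 genes were) and 1 was lower (1.93% were), *Nqo1*, at 2.56 against 3.997 CPM from 20 UMIs, with an interval that spans no difference (−1.38 to 0.020). *Slc7a11* was at 152 against 212 CPM (log2 fold change −0.47, −0.56 to −0.39) and *Ftl1* at 12805 against 15693 CPM (−0.29). *Hmox1* was at 1238 against 1346 CPM (−0.12, −0.15 to −0.09), and *Slc40a1* at 28.7 against 32.9 CPM (−0.20, −0.40 to 0.0037). The median of the 10 ratios was −0.24, and that of all genes −0.0095.

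In the tumor library the iron exporter stood out. *Slc40a1* was at 4.17 CPM (2.72 to 6.10) in class II-high cells, from 26 UMIs, against 17.2 CPM in the others, a log2 fold change of −2.04 (−2.66 to −1.48). With the limit at the 80th or 95th percentile it was −0.95 or −2.88. After thinning, 7 of 550 class II-high cells (1.27%, 0.513% to 2.60%) held a *Slc40a1* UMI, against 371 of 6387 others (5.81%, 5.25% to 6.41%). *Hmox1* was at 501 against 745 CPM (−0.57, −0.62 to −0.52), short of 1.5-fold here and past it under several alternatives, with a range of −0.84 to −0.53 over all of them. Of 10 genes, 0 were at least 1.5-fold higher (3.68% of 10526 genes were) and 2 lower (5.86% were), *Slc40a1* and *Nqo1*, the latter from 14 UMIs with an interval from −1.61 to 0.057. The median over the 10 genes was −0.23 and that of all genes −0.081.

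*Fth1* and *Slc7a11* had opposite signs in the 2 libraries. In tumor, *Fth1* was at 30500 CPM in class II-high cells against 24393 CPM in the others (0.32), while in control it was slightly lower in them (−0.091). *Slc7a11* was at 252 against 213 CPM in tumor (0.24). Set between libraries within class II-high cells, *Slc40a1* had a log2 fold change of tumor over control of −2.78 and *Hmox1* of −1.30, against −0.94 and −0.85 among the other cells. Neither of these differences between libraries was tested.

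Markers of other cells moved with the class, and their part in these values was not tested beyond leaving out the barcodes that such markers lead. B cell markers, of cells that carry class II themselves, were at 51.8 CPM in class II-high cells against 1.05 in the others in control, and at 17.8 against 0.512 in tumor (all 5 genes present in both). Dendritic cell markers, of another class II cell, were at 23.7 against 18.0 CPM in control and at 16.3 against 10.6 in tumor, where 1.20% of class II-high cells and 0.141% of the others held at least 3 of their UMIs (1.04% and 0.425% in control). All 8 of these genes were present in the control class and 4 in the tumor class, with *Flt3*, *Cd209a*, *Xcr1* and *Itgae* at 0. Fibroblast markers in tumor were at 1.12 against 34.8 CPM. Epithelial markers were at 152 against 75.4 CPM in control and at 17.8 against 22.4 in tumor. Endothelial markers were at 3.59 against 6.87 CPM in control and at 42.8 against 3.40 in tumor. Tumor class II-high cells held interstitial macrophage markers at 236 CPM against 19.5 in the others (all 4 genes present), and monocyte and tumor-associated macrophage markers at 59.6 against 13.8 CPM (4 of 5 present, *Tgfb3* at 0). In control the same lists stood at 2.82 against 0.666 CPM and at 10.6 against 7.70 CPM. Of the tumor class, 23 of 583 barcodes counted as another cell type. Without all such barcodes the *Slc40a1* value in tumor was −2.02 and that of *Hmox1* −0.65. AM markers were at 11493 against 14033 CPM in tumor and 17555 against 16054 CPM in control.

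**Figure D4:**
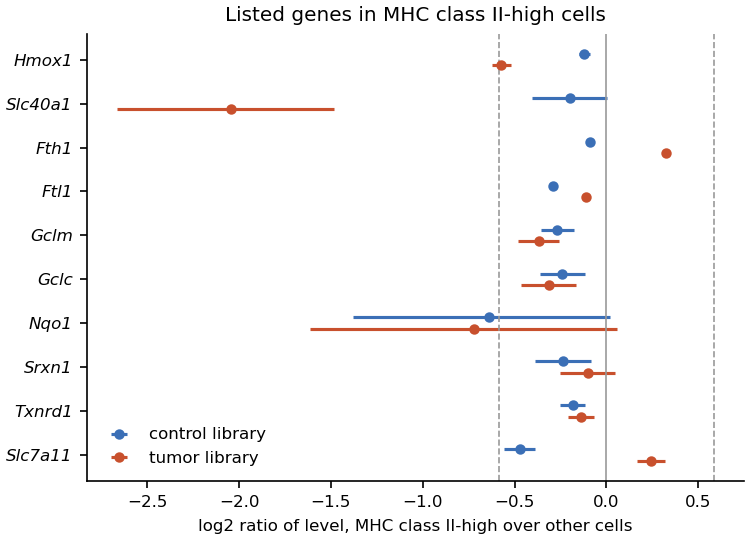
Log2 ratio of the level in MHC class II-high cells over that in the other cells of the same library, for each gene, in control (blue) and tumor (orange); bars are exact 95% intervals of counting error and dashed lines mark 1.5-fold. *Slc40a1* in tumor lies at −2.04, and *Fth1* and *Slc7a11* fall on opposite sides of 0 in the 2 libraries.

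How the genes were placed among other states of the sorted cells was read from the 10% of cells highest in each of 5 short gene programs. Markers of other cell types are not given for these classes, so they may hold cells other than AMs. *Slc7a11* followed the inflammatory program (*Cxcl2*, *Tnf*, *Il1b* and others), at 358 against 187 CPM in control (log2 fold change 0.94) and at 401 against 194 CPM in tumor (1.05). It was low in cells high in heat shock genes, at 119 against 214 CPM in control (−0.84) and 102 against 228 CPM in tumor (−1.16). *Hmox1* was close to level in inflammatory cells (0.052 and 0.19). Cells high in cell cycle genes held less ferritin, with *Ftl1* at −0.47 and −0.25 and *Fth1* at −0.44 and −0.35.

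Of the programs, 2 went with low *Slc40a1* and high *Fth1* in tumor. How far the cells of these 2 classes overlap is not given. Both tumor classes were deeper than the remaining cells, with medians of 11001 against 8057 UMIs for interferon and 11181 against 8016 for *Apoe*. In cells high in interferon-induced genes (*Isg15*, *Ifit1*, *Cxcl10* and others), tumor *Slc40a1* was at 7.74 against 17.2 CPM (−1.15), *Hmox1* at 440 against 764 CPM (−0.80) and *Fth1* at 36245 against 23292 CPM (0.64). In control the ratios were 0.011, −0.18 and 0.16, but interferon-induced UMIs were so few there that the highest 618 cells include some with none, and the classes of the libraries are not alike. In cells high in *Apoe*, *S100a6*, *S100a4* and *Crip1*, tumor *Slc40a1* was at 6.19 against 17.5 CPM (−1.50) and *Fth1* at 35937 against 23282 CPM (0.63), where control had −0.45 and 0.19. Differences between libraries in these ratios were not tested.

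**Figure D5:**
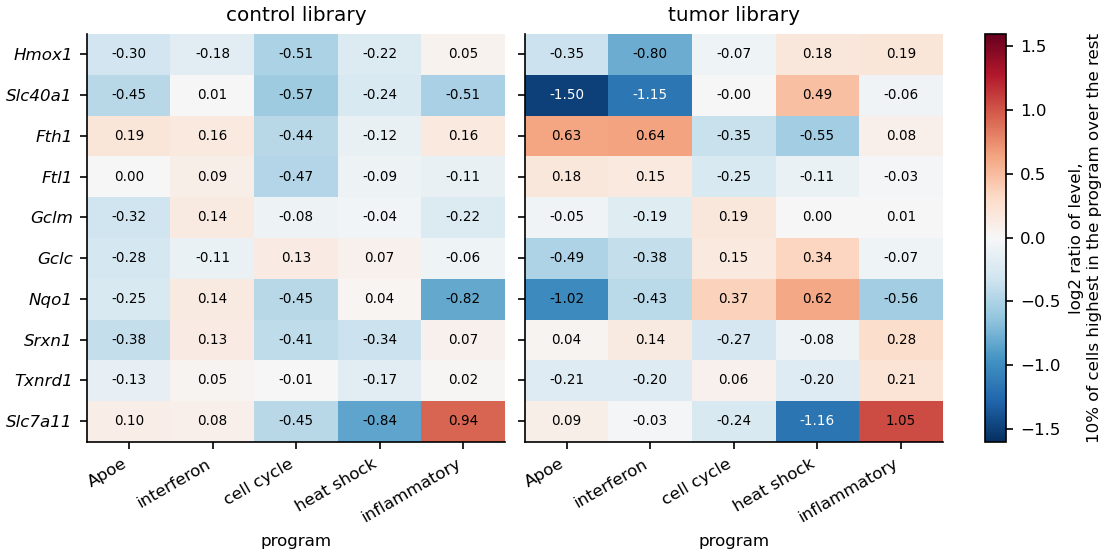
Log2 ratio of the level in the 10% of cells highest in a program over that in the remaining cells of the library, for each gene (rows) and program (columns), control at left and tumor at right; red is higher and blue lower. *Slc7a11* is high in the inflammatory (0.94 and 1.05) and low in the heat shock column (−0.84 and −1.16) of both libraries, and *Slc40a1* is lowest in the tumor *Apoe* column (−1.50).

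The last of these programs was far more common in tumor, with 34.2% of tumor cells above the 95th percentile of control cells, against 5.01% in control. Its part in the difference between libraries was not tested. Among the remaining 5875 control and 5048 tumor cells, the tumor over control log2 fold change was −0.74 (−0.76 to −0.73) for *Hmox1*, −0.61 (−0.72 to −0.49) for *Slc40a1* and 0.047 (0.043 to 0.051) for *Fth1*. Within tumor, cells above the limit against those below it had −0.44 for *Hmox1*, −1.61 for *Slc40a1* and 0.53 for *Fth1*. *Ftl1* had 0.21 between libraries in the remaining cells.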

How the data were processed

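The authors deposited one table per library of UMI counts for each gene and barcode, not normalized, made on mm10. The submitters' processing notes name bcl2fastq 2.20 and Cell Ranger 4.0.0, and the study's methods another Cell Ranger version. The study's methods assign barcodes to samples by hashtag reads. That step was not repeated, and every barcode of a table carries the condition of the table's label. Of 32285 Ensembl identifiers 32158 were matched to a symbol. Barcodes with at least 500 genes and at most 10% mitochondrial UMIs were kept. No doublet caller was applied, and an alternative leaves out the 6% of barcodes with the most UMIs. The listed genes, gene lists, classes and programs were chosen with earlier results of these data known, and the iron-responsive element and AP-1 searches were added last.

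Levels are UMIs per 1000000, with exact Poisson, binomial or conditional binomial intervals at 95% that cover counting error only. A background gene needed at least 100 UMIs in the comparison. Thinning drew 3800 UMIs per cell without replacement, the 10th percentile of the shallower library rounded down, and left out 595 control and 729 tumor cells. The genes named are the 10 listed, the 3 with the largest ratio in each pathway list and the 5 most like *Hmox1* and *Slc40a1*, with exceptions stated. Of the iron-recycling list, *Axl* and *Mertk* are named without their ratios. Marker genes not reported here, 1 in each of 2 lists, were left out of their lists. Alternatives changed the barcode filters, scaling, fold, class limits and thinning. Scripts were tested on simulated data and used Python 3.11.15, numpy 2.4.6, scipy 1.17.1, pandas 2.3.3 and matplotlib 3.10.9.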

Additional observations from a re-analysis of the deposited data

Results flagged for a closer look

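For 5 of the listed genes, a contrast between cells had opposite signs in the control and the tumor library, each with an interval away from 0. None of these differences was tested, since there was 1 library per condition. *Fth1* had 3 such contrasts, with log2 ratios of −0.091 in control and 0.32 in tumor for MHC class II-high cells, 0.056 and −0.11 for *Hmox1*-high cells, and 0.24 and −0.23 for *Slc40a1*-high cells. The control value for *Hmox1*-high cells was −0.026 without the cells with at least 16 *Hmox1* UMIs. *Slc7a11* had −0.47 in control and 0.24 in tumor for class II-high cells. In cells high in heat shock genes, *Hmox1* had −0.22 in control and 0.18 in tumor, and *Slc40a1* had −0.24 and 0.49. In cells high in interferon-induced genes, *Gclm* had 0.14 in control and −0.19 in tumor, and the control class includes cells with no UMI of these genes.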

How the results depend on the processing

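No paired analysis was possible because each condition has 1 library. The numbers of genes at least 1.5-fold higher or lower kept within 1.5 times their value under most alternatives. With a fold of 2, 1 gene was lower in the tumor library, 0 in control and 1 in tumor class II-high cells, and 2 and 1 genes were higher in *Hmox1*-high and 4 and 2 in *Slc40a1*-high cells of control and tumor. With a lower fold limit, 2 and 4 genes were lower in control and tumor class II-high cells and 1 was higher in tumor ones. The single gene lower in control class II-high cells, *Nqo1*, was lost (0 genes) with a minimum of 2000 genes, without the 1% of cells highest in the listed genes, at the 95th or 80th percentile, without *Cd74* in the score, and without the cells above the control range of the *Apoe* program. In tumor class II-high cells 4 genes were lower at the 95th and 1 at the 80th percentile, and 2 or 3 under the alternatives to the barcode filters, score and scaling, the third being *Hmox1*. With another random thinning, 2 genes were higher in tumor *Slc40a1*-high cells. Without cells of at least 16 *Hmox1* UMIs, an alternative chosen like the *Apoe* one after seeing the data, 4 and 3 genes were higher in *Hmox1*-high cells of control and tumor and 4 in control *Slc40a1*-high cells. No ratio past 1.5-fold changed its sign. Over all alternatives the tumor over control log2 ratio ranged from −1.07 to −0.74 for *Hmox1*, from −1.06 to −0.61 for *Slc40a1* and from 0.047 to 0.33 for *Fth1*, and the *Slc40a1* ratio in tumor class II-high cells from −2.88 to −0.95. *Nqo1*, counted from 248 control and 245 tumor UMIs, had the other sign between libraries in 4 of 14 alternatives, and *Txnrd1* in 1.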
